A study of Saccharomyces cerevisiae with 10 samples.

Results

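The genes described here encode the subunits of the 3 nuclear RNA polymerases of the yeast Saccharomyces cerevisiae. A list of 31 gene names was matched to the gene annotation of the arrays, and each name was found with 1 probe set, so that 31 of the 5654 named genes tested were members. The rule rests on gene names. Of the 31 genes, 7 encode subunits found in RNA polymerase I only, 7 in RNA polymerase II only and 10 in RNA polymerase III only, 2 encode subunits shared by polymerases I and III, and 5 encode subunits of all 3 enzymes. Strain TMB3500 was grown in aerobic batch culture on glucose and then given a continuous feed, either spruce hydrolysate that had not been detoxified or a medium whose glucose, mannose and xylose matched the sugar content of the hydrolysate. Total RNA was read on single-colour Affymetrix arrays, with 2 biological replicates in each of 5 groups: the start of the feed (0 h), 9 h and 18 h of the sugar feed, and 9 h and 18 h of the hydrolysate feed. All 10 arrays carried the same strain, and the labels give no allele or agent beyond the feeds.

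RNA polymerase I makes the precursor of the large ribosomal RNAs, RNA polymerase III makes transfer RNAs and the smallest ribosomal RNA, and RNA polymerase II makes messenger RNA. The enzymes share a core of related subunits. Each has a catalytic centre formed by its largest and second largest subunits, a pair of subunits that starts assembly, a protruding stalk of 2 subunits and a zinc ribbon subunit. Genes for polymerases I and III are known in yeast as part of the large set of ribosome biogenesis genes, which growing cells express at high levels and which falls when nutrients become limiting or cells are stressed.

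Levels are given on the authors' log2 scale, deposited after RMA (robust multi-array averaging), so a difference of 1 is a factor of 2. Values can be compared between arrays for a gene but not between genes, since probe sets differ in brightness. They are relative to the whole labelled RNA of a culture, so fewer cells that express a gene and less RNA of it per cell cannot be told apart. All 31 genes exceeded background, the 95th percentile of 5028 Schizosaccharomyces pombe probe sets (4.67 to 4.90), on every array. A gene was called when its limma p-value was under 0.05 after Benjamini-Hochberg adjustment across the 5654 genes. The median gap between replicates over the 31 genes was 0.21 at the start, 0.21 and 0.29 at 9 h of sugar and hydrolysate feed, and 0.16 and 0.13 at 18 h. The widest gap of each group was 1.15 for RPO21 at the start, 0.44 for RPC34 at 9 h of sugar feed, 1.06 for RPC17 at 9 h of hydrolysate, 0.88 for RPA43 at 18 h of sugar feed and 0.70 for RPC11 at 18 h of hydrolysate.

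Over the arrays as a whole, 3 technical measures differed between groups. The signal of 8 control genes near the 3′ end minus that near the 5′ end averaged 0.831 ± 0.075 (log2, SD, n = 2) at the start. It was 0.669 ± 0.003 and 0.96 ± 0.049 at 9 h of sugar and hydrolysate feed, and 0.599 ± 0.0077 and 1.23 ± 0.052 at 18 h. The mean of the spiked-in hybridization control RNAs was 11.87 at the start and 10.64 to 10.93 in the other groups. The 17 probe sets for S. cerevisiae ribosomal RNA averaged 8.95 at the start, 6.27 and 7.53 at 9 h of sugar and hydrolysate feed, and 8.21 and 7.81 at 18 h. The part of these measures in the results below was not tested, except where values with spike-in scaling or with the trend on gene length removed are given.

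The 31 genes did not move as a block. Of them, 22 had their highest group mean at 9 h of one of the feeds, 15 in hydrolysate and 7 in sugar feed. The lowest mean was at the start for 14 genes, at 18 h of sugar feed for 11 and at 18 h of hydrolysate for 6. In polymerase I, 6 of 7 genes peaked at 9 h, as did all 7 genes for shared subunits, against 4 of 7 in polymerase II and 5 of 10 in polymerase III. The highest and lowest groups were not counted over all genes, so whether these counts are particular to the subunit genes was not tested.

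**Figure D1:**
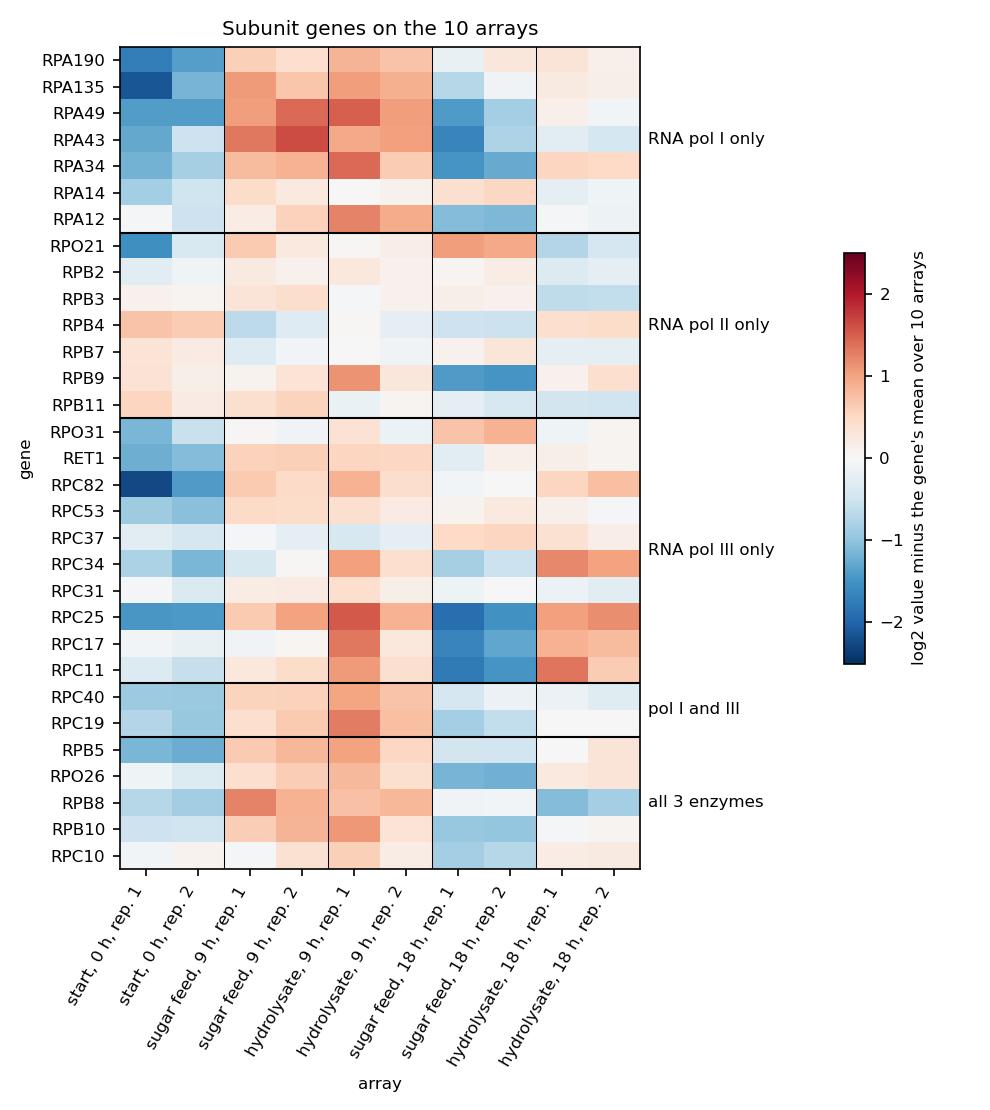
Each row is a subunit gene and each column an array; the colour is the log2 value minus the gene's mean over the 10 arrays. Most polymerase I and shared genes are low at the start and high at 9 h of both feeds, and at 18 h of sugar feed RPC25, RPC17, RPC11 and RPB9 are low where RPO21 and RPO31 are high.

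The comparisons with the start asked how the subunit genes changed once feeding began. At 9 h of sugar feed 23 of 31 genes were higher than at the start and 2 lower, where 33.9% of all genes tested were higher and 32.2% lower. At 9 h of hydrolysate 24 were higher and 2 lower, against 33.6% and 29.1% of all genes. Both comparisons share the arrays of the start. All 7 polymerase I genes rose in each of them, with a median log2 difference of 2.06 in sugar feed and 2.03 in hydrolysate. The medians of all genes lay within 0.03 of 0. The polymerase II genes had medians of 0.11 and -0.04, with 3 higher and 2 lower of 7 in sugar feed and 2 and 2 in hydrolysate. Of 10 polymerase III genes 7 rose in sugar feed (median 0.82) and 9 in hydrolysate (median 1.23), and none fell. Some of these calls were lost without at least 1 array. In sugar feed they were those of RPA12, RPB2, RPB3, RPB7, RPO31, RPC34 and RPC11. In hydrolysate they were those of RPO21, RPB2, RPB11, RPC31 and RPC17. Both genes shared by polymerases I and III rose in both comparisons, and 4 of the 5 genes shared by all 3 enzymes did; RPC10, the exception, was at 0.16 and 0.38.

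Fewer subunit genes stood above the start at 18 h. In hydrolysate 18 genes were higher than at the start and 3 lower, against 33.2% and 22.2% of all genes. In sugar feed 12 were higher and 8 lower, against 36.8% and 29.7%, shares close to those of the 31 genes. The medians in hydrolysate were 1.43 for polymerase I, -0.23 for polymerase II and 1.13 for polymerase III, and in sugar feed 0.27, -0.08 and 0.57. Without at least 1 array, RPA14, RPB7, RPO31, RPC37, RPC17 and RPO26 lost their calls in hydrolysate, and RPA135 and RPC40 in sugar feed. The start arrays also had the brighter spike-ins. With each array scaled to its spike-ins, the median of all genes lay 1.21 (sugar, 9 h), 1.26 (hydrolysate, 9 h), 1.24 (sugar, 18 h) and 1.03 (hydrolysate, 18 h) above the start, and no subunit gene was called lower in any of these comparisons, with 30, 30, 23 and 28 called higher. With the trend on gene length removed, 14 were higher and 5 lower at 18 h of sugar feed. Directions against the start are therefore relative to the median of all genes on the array.

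Within each feed, more subunit genes fell than rose from 9 h to 18 h. In sugar feed 18 of 31 fell and 3 rose, against 27% and 31.9% of all genes. In hydrolysate 11 fell and 2 rose, against 17.1% and 18%; fitted on the 4 arrays of that comparison alone, 8 fell and none rose, and with spike-in scaling 16 fell and none rose. All 7 genes for shared subunits fell in sugar feed (median -1.21), and 5 of them fell in hydrolysate (median -0.69). In polymerase I 5 of 7 fell in sugar feed (median -1.48) and 3 in hydrolysate (median -0.78). In polymerase II 2 of 7 fell and 1 rose in each feed, with medians of -0.05 in sugar feed and -0.44 in hydrolysate. In polymerase III 4 of 10 fell and 2 rose in sugar feed (median -0.55), against 1 and 1 in hydrolysate (median -0.06). The falls of RPA135 and RET1 and the rises of RPB7 and RPO31 in sugar feed lost their calls without at least 1 array. The genes that fell in hydrolysate were RPA12, RPA43, RPA49, RPB2, RPB3, RPC31, RPC19, RPC40, RPB5, RPB8 and RPB10, and RPB4 and RPC37 rose. RPA12, RPA49, RPB3, RPC19, RPC40 and RPB8 kept their calls without each array in turn, and the other 7 lost theirs without at least 1. Without hydrolysate replicate 1 at 18 h 7 genes were called, and without replicate 2, or without replicate 1 at 9 h, 8.

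Between the feeds at 9 h, limma called none of the 31 genes, against 5.77% of all genes higher and 3.91% lower in hydrolysate. At an unadjusted p under 0.05 there were 7 genes, and the authors' deposited table called none either. The log2 differences ran from -0.52 for RPB11 to 0.90 for RPC34, with a median of 0.09. RPC34 (adjusted p = 0.0534), RPA12 (0.72, adjusted p = 0.0582) and RPB11 (adjusted p = 0.0687) came nearest to the limma threshold, and all 3 passed it when either array of the start was left out. Without hydrolysate replicate 2 at 9 h, 7 genes were called, with RPC17 at 1.35 and RPC34 at 1.21; 1550 of all 5654 genes were called in that fit, so the share of subunit genes was near that of all genes.

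Between the feeds at 18 h, 15 of the 31 genes were higher in hydrolysate and 7 lower, and 9 were not called. Of all genes, 31.2% were higher and 30.8% lower, so the lower share among the subunit genes (7 of 31) stood below the background and the higher share (15 of 31) above it. The median over the 31 genes was 0.63, beside 0.01 over all genes. The class medians were 0.86 for polymerase I (4 higher, 1 lower of 7), -0.42 for polymerase II (2 higher, 4 lower of 7), 0.43 for polymerase III (4 higher, 1 lower of 10) 0.39 for the pair shared by I and III (1 higher of 2) and 0.98 for the subunits of all 3 enzymes (4 higher, 1 lower of 5). Within polymerase III the differences of single genes ran from -0.82 to 2.79. The authors' deposited table called RPC25, RPC17 and RPC11 higher at the later time and no subunit gene lower. With spike-in scaling the median of all genes moved to -0.22, and 12 subunit genes were higher and 7 lower. On the same arrays the 3′ minus 5′ difference of the control genes was 1.23 ± 0.052 in hydrolysate and 0.599 ± 0.0077 in sugar feed (SD, n = 2), and its part in the result was not tested.

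**Figure D2:**
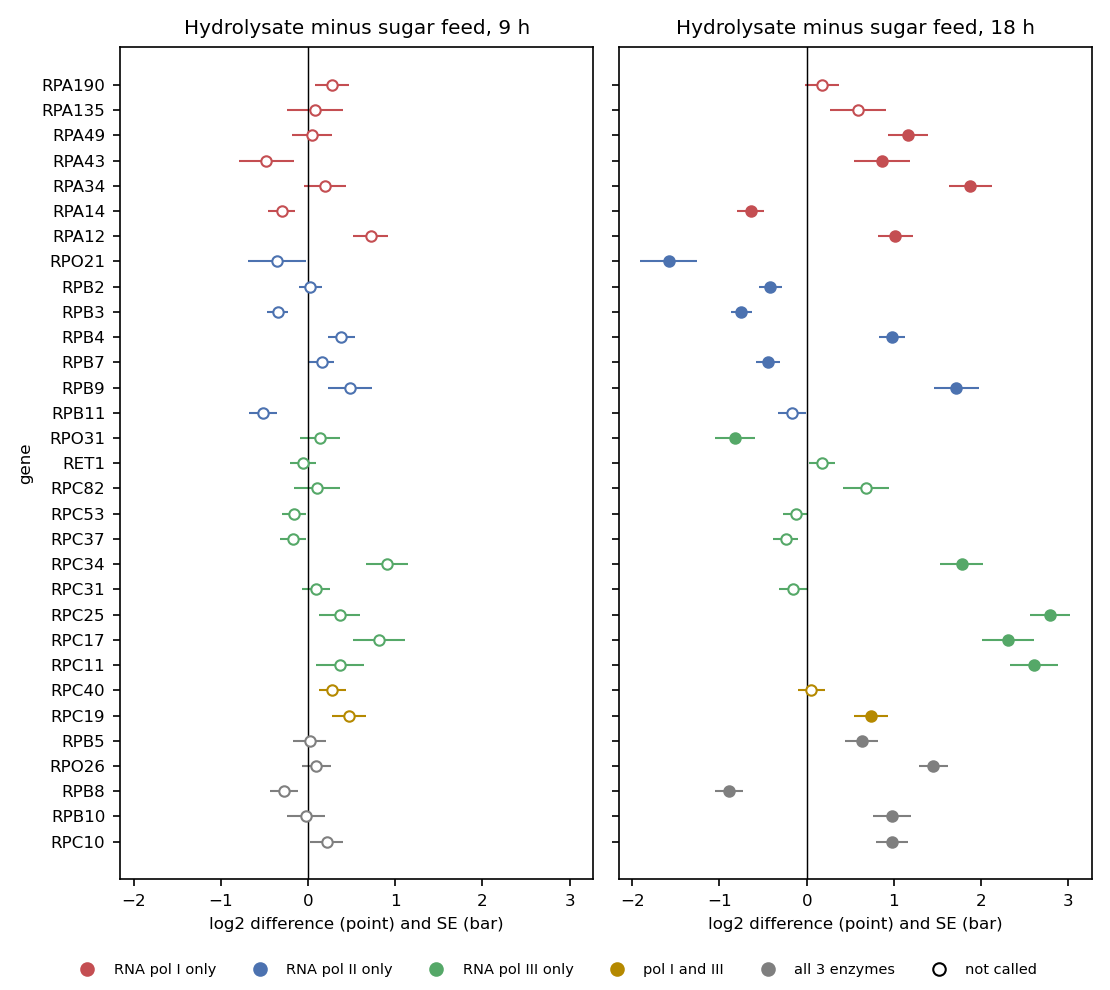
Log2 difference between hydrolysate and sugar feed for each subunit gene at 9 h (left) and 18 h (right); points are differences of 2 against 2 arrays, bars are the limma SE, colours mark the enzyme and open points were not called. All points at 9 h are open, and at 18 h they spread from -1.58 (RPO21) to 2.79 (RPC25).

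The feed difference itself changed from 9 h to 18 h in 8 of 31 genes, all towards hydrolysate, against 14.3% of all genes upward and 13.1% downward. These were RPC25 (2.43, SE 0.33, limma adjusted p = 0.00289), RPC11, RPC17, RPA34, RPA49, RPB9, RPO26 and RPB10. RPC25, RPC11, RPA34 and RPO26 kept this call without each array in turn, and the other 4 did not. Without hydrolysate replicate 1 or 2 at 18 h, sugar replicate 2 at 9 h or sugar replicate 1 at 18 h, 4 genes were called. With spike-in scaling, which moved the median of all genes to -0.28, 4 genes changed upward and 2 downward, and removal of the length trend gave 8 upward and 2 downward. A fit of only the arrays compared gave 8 upward and 3 downward.

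RNA polymerase I consists of a catalytic core, a stalk and a pair of subunits related to the polymerase II factor TFIIF. RPA190 encodes the largest subunit (YOR341W, chromosome XV, 960987 to 965981, coordinates of the authors' deposited annotation, equal to assembly R64). It read 9.35 and 9.71 at the start, 11.67 and 11.51 at 9 h of sugar feed, 11.93 and 11.80 at 9 h of hydrolysate, 10.89 and 11.37 at 18 h of sugar feed and 11.40 and 11.21 at 18 h of hydrolysate. Both start arrays lay below all 8 others, while at 18 h the feeds overlapped (0.18, SE 0.196, limma adjusted p = 0.452). RPA135, the second largest subunit (YPR010C, chromosome XVI, 577585 to 581196), read 8.47 and 9.44 at the start, 11.67 and 11.30 at 9 h of sugar feed, 11.65 and 11.49 at 9 h of hydrolysate, 9.88 and 10.52 at 18 h of sugar feed and 10.83 and 10.75 at 18 h of hydrolysate. It was higher than at the start by 2.54 at 9 h of sugar feed and 2.62 at 9 h of hydrolysate. At 18 h both hydrolysate arrays lay above both sugar arrays, and the difference of 0.59 was not called (adjusted p = 0.136).

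The TFIIF-like pair of polymerase I, which helps the enzyme to open promoters and to elongate, was called higher in hydrolysate at 18 h. RPA34 (YJL148W, chromosome X, 140437 to 141138) read 9.44 and 9.79 at the start, 11.41 and 11.49 at 9 h of sugar feed, 12.03 and 11.25 at 9 h of hydrolysate, 9.15 and 9.36 at 18 h of sugar feed and 11.16 and 11.11 at 18 h of hydrolysate. The sugar arrays at 18 h lay just below those of the start, and both hydrolysate arrays lay above both sugar arrays (1.88, SE 0.242, limma adjusted p = 0.000322). With spike-in scaling RPA34 at 18 h of sugar feed was above the start (0.80, adjusted p = 0.00808). RPA49, its partner (YNL248C, chromosome XIV, 181361 to 182608), read 8.02 and 8.03 at the start, 10.47 and 10.85 at 9 h of sugar feed, 10.92 and 10.48 at 9 h of hydrolysate, 8.01 and 8.57 at 18 h of sugar feed and 9.55 and 9.36 at 18 h of hydrolysate. It was higher in hydrolysate at 18 h by 1.16 (SE 0.23, limma adjusted p = 0.00252), and in sugar feed it fell from 9 h to 18 h (-2.37).

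The stalk genes of polymerase I had opposite signs at 18 h. RPA14 (YDR156W, chromosome IV, 769525 to 769938), for the smaller stalk subunit, read 9.38 and 9.72 at the start, 10.68 and 10.46 at 9 h of sugar feed, 10.22 and 10.32 at 9 h of hydrolysate, 10.63 and 10.73 at 18 h of sugar feed and 9.97 and 10.11 at 18 h of hydrolysate. It was the polymerase I gene lower in hydrolysate at 18 h (-0.64, SE 0.155, limma adjusted p = 0.00681), and in sugar feed its values at 9 h and 18 h overlapped (0.11, adjusted p = 0.572). RPA43, for the larger stalk subunit that binds the initiation factor Rrn3, was called higher at 18 h (0.86, limma adjusted p = 0.0407). The sugar replicates of RPA43 at 18 h were 6.89 and 7.77, and without replicate 1 the difference was 0.42 (adjusted p = 0.288). Leaving out any array at 9 h or either hydrolysate array at 18 h also ended that call (adjusted p 0.0536 to 0.149), as did quantile normalization (0.68, adjusted p = 0.0751), spike-in scaling (0.64, adjusted p = 0.0929) and a fit of the arrays compared alone (adjusted p = 0.0579). RPA12, the zinc ribbon subunit with RNA cleavage activity, was higher in hydrolysate at 18 h by 1.02 (adjusted p = 0.00259). RPA43 and RPA190 lie next to each other on chromosome XV and are read in opposite directions from a gap of 804 bases. Their feed differences at 18 h were 0.86 and 0.18, and from 9 h to 18 h of sugar feed they were -2.68 (called) and -0.46 (not called).

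The genes of RNA polymerase II had the fewest rises at 9 h of the 3 enzymes' own subunits. RPO21, the largest subunit, which carries the repeated tail that coordinates messenger RNA processing (YDL140C, chromosome IV, 205360 to 210561), read 9.88 and 11.03 at the start, 12.07 and 11.65 at 9 h of sugar feed, 11.44 and 11.57 at 9 h of hydrolysate, 12.46 and 12.36 at 18 h of sugar feed and 10.68 and 10.99 at 18 h of hydrolysate. Its start replicates differed by 1.15. At 18 h both sugar arrays were the brightest of the 10 and lay above both hydrolysate arrays (-1.58, SE 0.328, limma adjusted p = 0.00324), the lowest value among the 31 genes. RPB2, the second largest subunit (YOR151C, chromosome XV, 612997 to 616671), read 11.55 and 11.72 at the start, 12.05 and 11.94 at 9 h of sugar feed, 12.10 and 11.94 at 9 h of hydrolysate, 11.90 and 12.01 at 18 h of sugar feed and 11.49 and 11.58 at 18 h of hydrolysate. All 10 values lay between 11.49 and 12.10, and the feed difference at 18 h was -0.42 (adjusted p = 0.0225). That call was lost without any 1 of the 4 arrays at 18 h (adjusted p 0.0539 to 0.13), and with the length trend removed the difference was 0.03.

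The smaller polymerase II subunits moved in both directions. RPB9, the zinc ribbon subunit that takes part in start site choice and accuracy (YGL070C, chromosome VII, 374459 to 374827), read 10.93 and 10.72 at the start, 10.66 and 10.92 at 9 h of sugar feed, 11.69 and 10.86 at 9 h of hydrolysate, 9.16 and 9.09 at 18 h of sugar feed and 10.68 and 11.00 at 18 h of hydrolysate. The sugar arrays at 18 h were the lowest of the 10, and hydrolysate was higher by 1.71 (SE 0.257, limma adjusted p = 0.000641). RPB4, a stalk subunit that can leave the enzyme (YJL140W, chromosome X, 150961 to 151626), read 12.88 and 12.82 at the start, 11.53 and 11.86 at 9 h of sugar feed, 12.21 and 11.94 at 9 h of hydrolysate, 11.65 and 11.64 at 18 h of sugar feed and 12.60 and 12.63 at 18 h of hydrolysate. It was highest at the start, and at 18 h both hydrolysate arrays lay above both sugar arrays (0.98, SE 0.153, limma adjusted p = 0.00079). With spike-in scaling RPB4 was above the start at 18 h of hydrolysate (0.70, adjusted p = 0.0175). In the other feed groups it was then not called (-0.05 to 0.45). RPB7, its stalk partner, was lower in hydrolysate at 18 h (-0.44, adjusted p = 0.0238); the call was lost without either hydrolysate array (adjusted p 0.0823 and 0.0833) or sugar replicate 2 (0.155) at 18 h. Of the pair that starts assembly of the enzyme, RPB3 was lower in hydrolysate at 18 h (-0.75, adjusted p = 0.000833). The other, RPB11 (YOL005C, chromosome XV, 315813 to 316175), read 10.97 and 10.64 at the start, 10.83 and 10.99 at 9 h of sugar feed, 10.27 and 10.51 at 9 h of hydrolysate, 10.20 and 10.04 at 18 h of sugar feed and 9.98 and 9.93 at 18 h of hydrolysate. At 18 h both hydrolysate arrays lay just below both sugar arrays and the difference was not called (-0.17, adjusted p = 0.389). Both feeds lay below the start at that time (-0.85 in hydrolysate and -0.69 in sugar feed), which spike-in scaling turned to 0.08 and 0.47, neither called. With the length trend removed RPB11 was not called in sugar feed (0.00, adjusted p = 1) and still called lower in hydrolysate (-0.71, adjusted p = 0.00877).

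In RNA polymerase III neither catalytic subunit gene was higher in hydrolysate at 18 h. RPO31, the largest subunit (YOR116C, chromosome XV, 539763 to 544145), read 9.15 and 9.74 at the start, 10.33 and 10.20 at 9 h of sugar feed, 10.65 and 10.15 at 9 h of hydrolysate, 11.01 and 11.17 at 18 h of sugar feed and 10.18 and 10.36 at 18 h of hydrolysate. The sugar arrays at 18 h were the brightest of the 10, and hydrolysate was lower (-0.82, SE 0.229, limma adjusted p = 0.0131). This call was lost without hydrolysate replicate 1 (adjusted p = 0.0716) or sugar replicate 2 (0.0754) at 18 h, and with the length trend removed (-0.31, adjusted p = 0.245). RET1, the second largest subunit (YOR207C, chromosome XV, 730008 to 733457), read 8.85 and 8.99 at the start, 10.65 and 10.66 at 9 h of sugar feed, 10.61 and 10.58 at 9 h of hydrolysate, 9.81 and 10.19 at 18 h of sugar feed and 10.22 and 10.14 at 18 h of hydrolysate. All 8 feed arrays lay above the start, and at 18 h the feeds overlapped (0.18, adjusted p = 0.33).

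The largest feed differences among the 31 genes were in the stalk and the zinc ribbon subunit of polymerase III. RPC25, the larger stalk subunit (YKL144C, chromosome XI, 175843 to 176481), read 7.58 and 7.60 at the start, 9.70 and 10.05 at 9 h of sugar feed, 10.57 and 9.91 at 9 h of hydrolysate, 7.16 and 7.53 at 18 h of sugar feed and 10.07 and 10.20 at 18 h of hydrolysate. It rose at 9 h of both feeds. From 9 h to 18 h it fell in sugar feed (-2.53), to just below the start, and was not called in hydrolysate (-0.10, adjusted p = 0.759). With spike-in scaling RPC25 at 18 h of sugar feed was above the start (0.92, adjusted p = 0.00659). At 18 h the difference between the feeds was 2.79, 6.92-fold (SE 0.233, limma adjusted p = 8.14e-05), and it lay between 2.61 and 2.97 when single arrays were left out. RPC11, the zinc ribbon subunit needed for RNA cleavage, termination and reinitiation (YDR045C, chromosome IV, 547978 to 548310), read 10.44 and 10.20 at the start, 11.05 and 11.24 at 9 h of sugar feed, 11.84 and 11.18 at 9 h of hydrolysate, 9.01 and 9.31 at 18 h of sugar feed and 12.12 and 11.41 at 18 h of hydrolysate. The hydrolysate arrays at 18 h lay above both sugar arrays and differed from each other by 0.70 (2.60, 6.08-fold, SE 0.278, limma adjusted p = 0.00016). RPC17, the smaller stalk subunit, was higher by 2.31 (SE 0.298, adjusted p = 0.000326). At 18 h of sugar feed RPC17 was below the start (-1.34), and spike-in scaling moved that value to -0.19, no longer called; it stayed called with the length trend removed (-0.80, adjusted p = 0.0192).

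The initiation trimer and the TFIIF-like pair of polymerase III showed smaller differences, with 1 exception. RPC34, the trimer subunit that contacts the initiation factor Brf1, was higher in hydrolysate at 18 h by 1.78 (SE 0.245, adjusted p = 0.000433). Its values were 9.07 and 9.36 in sugar feed and 11.10 and 10.89 in hydrolysate. The other trimer subunits were not called: RPC82 at 0.68 (adjusted p = 0.0508) and RPC31 at -0.15 (adjusted p = 0.429). RPC82, which was called without either start array or either hydrolysate array at 9 h (adjusted p 0.00976 and 0.0481), stood well above the start in every feed group, by 1.80 at 18 h of sugar feed and up to 2.50 at 9 h of hydrolysate. RPC53 (YDL150W, chromosome IV, 183343 to 184611), of the TFIIF-like pair, read 7.58 and 7.44 at the start, 8.95 and 8.94 at 9 h of sugar feed, 8.88 and 8.69 at 9 h of hydrolysate, 8.56 and 8.72 at 18 h of sugar feed and 8.60 and 8.42 at 18 h of hydrolysate. It rose at 9 h of both feeds (1.44 and 1.28) and the feeds at 18 h differed by -0.13 (adjusted p = 0.442). Its partner RPC37 was the polymerase III gene not called against the start at 9 h of either feed (0.21 and 0.03) and was higher than the start at 18 h of both (0.86 and 0.62); the call in hydrolysate was lost without its replicate 1 (adjusted p = 0.0545).

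Among the genes for shared subunits, RPC40 and RPC19 encode the assembly pair of polymerases I and III. RPC40 (YPR110C, chromosome XVI, 745828 to 746835) read 9.48 and 9.47 at the start, 10.96 and 10.97 at 9 h of sugar feed, 11.39 and 11.10 at 9 h of hydrolysate, 9.98 and 10.25 at 18 h of sugar feed and 10.25 and 10.09 at 18 h of hydrolysate. It rose by 1.49 at 9 h of sugar feed and by 1.77 at 9 h of hydrolysate, fell in both feeds by 18 h, and the feeds overlapped there (0.05, adjusted p = 0.772). RPC19 was higher in hydrolysate at 18 h by 0.73 (adjusted p = 0.0108), a call lost without sugar replicate 1 at 18 h (0.62, adjusted p = 0.0774), with spike-in scaling (0.51, adjusted p = 0.116) and with the length trend removed (0.22, adjusted p = 0.19). Of the 5 subunits of all 3 enzymes, RPO26, which belongs to the core and aids its assembly (YPR187W, chromosome XVI, 911257 to 911800), read 11.82 and 11.60 at the start, 12.36 and 12.55 at 9 h of sugar feed, 12.75 and 12.34 at 9 h of hydrolysate, 10.78 and 10.74 at 18 h of sugar feed and 12.18 and 12.25 at 18 h of hydrolysate. Both sugar arrays at 18 h were the lowest of the 10, and hydrolysate was higher by 1.45 (SE 0.166, limma adjusted p = 0.000203). Against the start RPO26 was at -0.95 at 18 h of sugar feed, which spike-in scaling moved to 0.21, no longer called. RPB10, a small zinc-binding core subunit (YOR210W, chromosome XV, 738320 to 738532), read 10.66 and 10.68 at the start, 11.80 and 12.03 at 9 h of sugar feed, 12.26 and 11.52 at 9 h of hydrolysate, 10.24 and 10.21 at 18 h of sugar feed and 11.16 and 11.25 at 18 h of hydrolysate. Its feed difference at 18 h was 0.98 (SE 0.219, limma adjusted p = 0.0047) and became 0.34 (adjusted p = 0.0868) once the length trend was removed. The other zinc-binding core subunit, RPC10, went from 0.98 to 0.34 (adjusted p = 0.083) in the same way.

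RPB8 and RPB5 completed the shared set. RPB8 had the opposite sign at 18 h, lower in hydrolysate with a log2 value of -0.89 (SE 0.16, adjusted p = 0.00157). It read 10.83 and 10.84 in sugar feed and 9.82 and 10.07 in hydrolysate at 18 h, against 10.20 and 10.04 at the start. RPB5, a subunit at the entry of the DNA, was higher by 0.63 (adjusted p = 0.0172); the call was lost without hydrolysate replicate 2 (0.46, adjusted p = 0.116) or sugar replicate 1 or 2 at 18 h (0.0684 and 0.0754), with spike-in scaling (0.40, adjusted p = 0.189) and with the length trend removed (0.29, adjusted p = 0.141).

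The 3 polymerases can be set side by side by position in the enzyme. At the stalk position of RPA43 the feed differences at 18 h were 0.86 (RPA43, polymerase I), -0.44 (RPB7, polymerase II) and 2.79 (RPC25, polymerase III). At the other stalk position they were -0.64 (RPA14), 0.98 (RPB4) and 2.31 (RPC17). RPA43 and RPC25 are the longer genes of their pairs, whereas RPB7 (516 bases) is shorter than RPB4 (666 bases). The stalk pair had opposite signs in polymerases I and II and the same sign in polymerase III, and of these calls those of RPA43 and RPB7 were lost without single arrays. At the zinc ribbon position all 3 genes were called higher in hydrolysate, RPA12 by 1.02, RPB9 by 1.71 and RPC11 by 2.60, and in sugar feed all 3 lay below the start at 18 h (-0.83, -1.70 and -1.16, each called). With spike-in scaling these values against the start were 0.33, -0.54 and 0.00, none called. With the length trend removed RPA12 (-0.17, adjusted p = 0.355) and RPC11 (-0.44, adjusted p = 0.12) were not called either, and RPB9 was (-1.02, adjusted p = 0.00215). The largest subunits had values of 0.18 (not called), -1.58 and -0.82. Differences between genes were not tested.

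**Figure D3:**
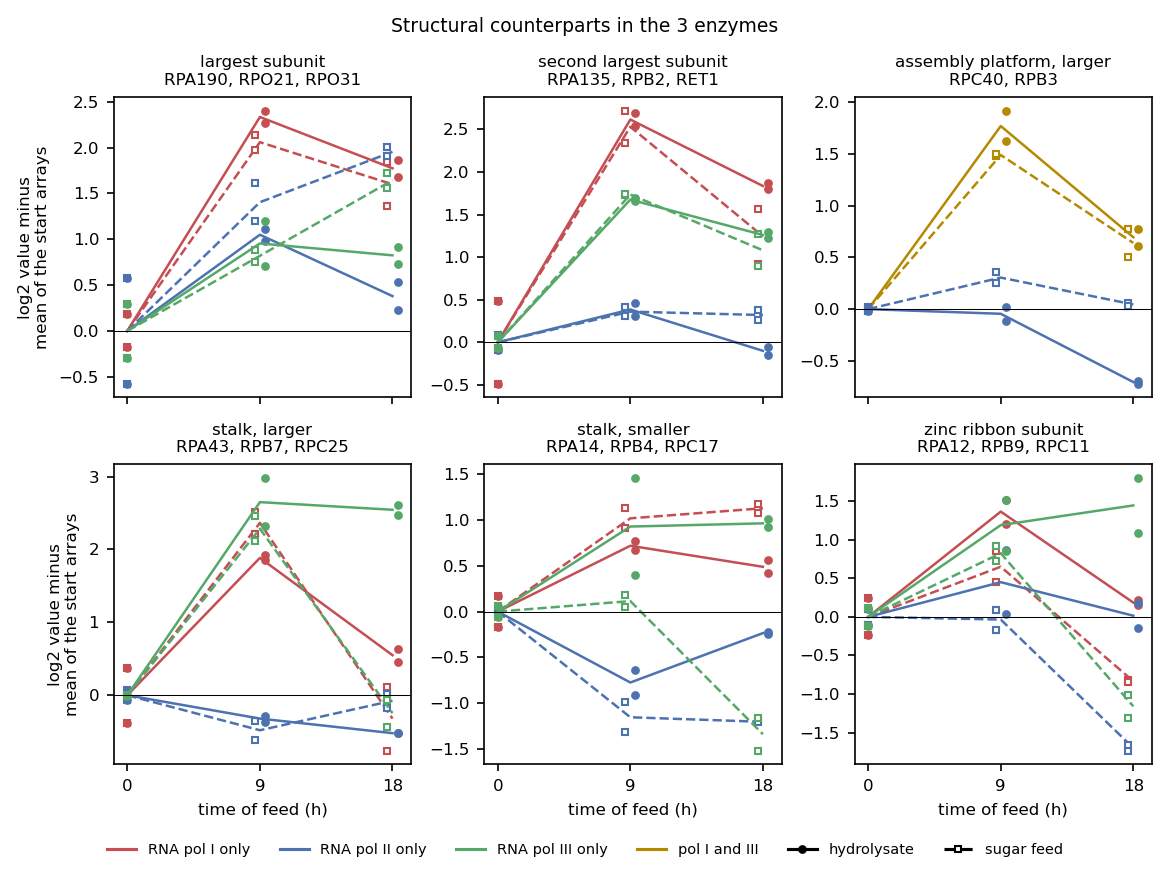
Log2 value minus the mean of the start arrays against time of feed, in 6 panels by position in the enzyme; points are arrays (shifted slightly sideways), lines join group means, colours mark the enzyme, solid lines and filled points are hydrolysate, dashed lines and open squares are sugar feed. The stalk panels are named by size in polymerases I and III, and in polymerase II RPB4 is the longer gene of the pair. RPA12, RPB9 and RPC11 lie below 0 at 18 h of sugar feed, where spike-in scaling moves them to 0.33, -0.54 and 0.00 and removal of the length trend to -0.17, -1.02 and -0.44, and RPO21 and RPO31 lie higher in sugar feed than in hydrolysate at that time.

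Gene length moved with the feed difference. The 6 genes longer than 3000 bases are the 6 catalytic subunit genes, whose median feed difference at 18 h was -0.12, against 0.86 for the other 25. Over the 31 genes, Spearman's rho between length and the feed difference at 18 h was -0.382, and over all genes -0.295; between 18 h of sugar feed and the start it was 0.734 and 0.413. These are descriptions across genes of the same arrays, and genes are not independent replicates. Over all genes the shortest 25% had a median feed difference of 0.47 at 18 h and the longest 25% -0.35. With the trend on length removed from each array, 14 subunit genes were higher and 8 lower at 18 h. RPA190 (0.74, adjusted p = 0.00715), RPA135 (1.03, adjusted p = 0.0139), RET1 (0.60, adjusted p = 0.00613) and RPC82 (0.90, adjusted p = 0.0124) were then called higher, and RPB11 (-0.71), RPC37 (-0.43) and RPC31 (-0.41) lower. RPC25 (2.44), RPC11 (2.04), RPC17 (1.84), RPC34 (1.66), RPA34 (1.58) and RPB9 (1.17) kept their calls, as did RPO21 on the lower side (adjusted p = 0.0183). RPA43 (0.76), RPB2, RPO31, RPC19, RPB5, RPB10 and RPC10 lost theirs. The median of polymerase I was then 0.76, that of polymerase II -0.71 and that of polymerase III 0.75.

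**Figure D4:**
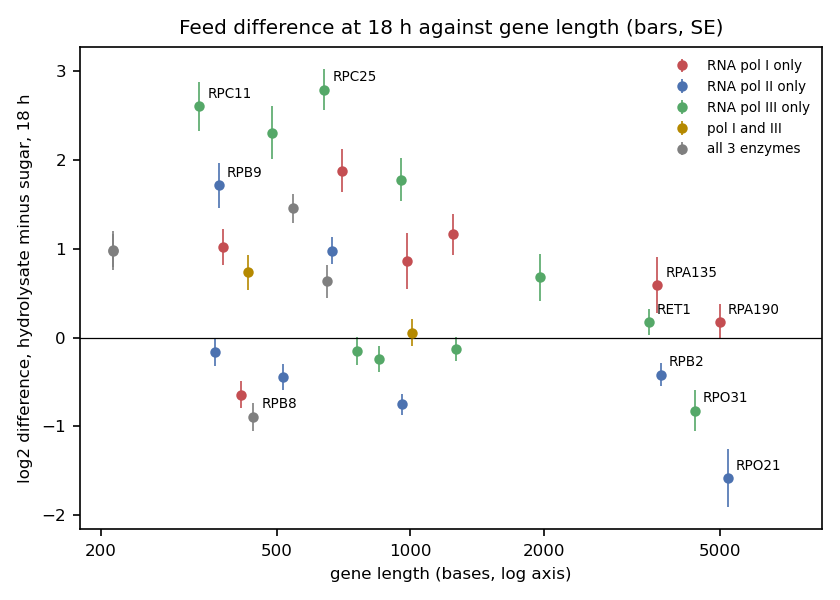
Log2 difference between hydrolysate and sugar feed at 18 h (bars, SE) against gene length on a log axis for the 31 genes, coloured by enzyme. The 6 genes over 3000 bases lie between -1.58 and 0.59, and the shorter genes between -0.89 and 2.79.

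Lists of factors that work with the polymerases were read in the same table. Of 8 polymerase I initiation factor genes, 3 were higher and 2 lower in hydrolysate at 18 h (median 0.31), shares near the 31.2% and 30.8% of all genes. UAF30 (1.35), RRN9 (1.16) and RRN10 (-0.97), all of the upstream activating factor of the ribosomal DNA promoter, had the largest values, and RRN11 (0.81) and RRN7 (-0.55), of the core factor, were also called. RRN3, whose protein links polymerase I to its promoter, was at 0.40 (adjusted p = 0.0865; called with the length trend removed, 0.61, adjusted p = 0.0114, and in a fit of the arrays compared alone, adjusted p = 0.0189). RRN3 rose from 9 h to 18 h in both feeds (1.08 in sugar feed and 0.98 in hydrolysate). Of 10 polymerase II general factor genes 4 were higher and 1 lower (median 0.03), against 31.2% and 30.8% of all genes. They were the elongation factor gene SPT4 (1.69), TOA2 (1.04), TFA2 (0.62), SUA7 (0.48) and, lower, TFG2 (-0.49). TOA2, SUA7, TFG2 and TFA2 encode subunits of the general factors TFIIA, TFIIB, TFIIF and TFIIE. SPT5 was not called at 18 h (-1.26), and its replicate SD was 1.00 at the start and 1.06 at 9 h of sugar feed. It was called lower with spike-in scaling (-1.48, limma adjusted p = 0.00484) and in a fit of the arrays compared alone (adjusted p = 0.00053). Of these genes, RRN11, RRN7, SUA7, TFG2 and SPT5 were named after their values were seen. The calls of UAF30, RRN9, SPT4 and TOA2 held without each array in turn; those of RRN10, RRN11, RRN7, TFA2, SUA7 and TFG2 were each lost without at least 1 array at 18 h. Spike-in scaling ended the calls of RRN11 (0.58), SUA7 (0.25) and TFA2 (0.39), quantile normalization that of RRN11 (0.61), and removal of the length trend that of RRN7 (-0.42).

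Of 10 polymerase III factor genes 3 were higher and 1 lower at 18 h (median 0.24), against 31.2% and 30.8% of all genes. PZF1, for the factor that recognises the gene of the smallest ribosomal RNA, was higher by 1.62 (SE 0.212, adjusted p = 0.000351), TFC8 by 0.54 and, named after its value was seen, TFC4 by 0.46; TFC3 was lower (-0.93). The TFC genes encode subunits of TFIIIC, which binds inside transfer RNA genes. The calls of TFC8 and TFC4 were lost without single arrays at 18 h, those of PZF1 and TFC3 were not. Spike-in scaling also ended the calls of TFC4 (0.23) and TFC8 (0.31), and quantile normalization that of TFC8 (0.31). MAF1, for the repressor of polymerase III, was not called (0.20). BRF1, for the initiation factor, was not called (0.30) but passed the threshold after quantile normalization (0.36, adjusted p = 0.0475) and with the length trend removed (0.49, adjusted p = 0.0158). At 9 h 5 of the 10 had risen above the start in sugar feed and 5 in hydrolysate, PZF1 the most in both (1.80 and 2.01), while 2 and 3 had fallen, TFC3 and BRF1 in both and MAF1 in hydrolysate (-0.49). Of all genes 33.9% and 33.6% had risen and 32.2% and 29.1% fallen, so the falls were not above the background share in sugar feed and near it in hydrolysate. These directions are relative to the median of all genes, which spike-in scaling moved to 1.21 (sugar feed) and 1.26 (hydrolysate) above the start. Of 8 assembly and import factor genes, GPN2 was higher (1.09) and BUD27 (-0.99) and RBA50 (-0.49) lower at 18 h. Of all genes 31.2% were higher and 30.8% lower. GPN2 alone kept its call without each array in turn, and BUD27 also lost its call with the length trend removed (-0.70, adjusted p = 0.0735). No gene of the 5 factor lists was called between the feeds at 9 h, against 5.77% of all genes higher and 3.91% lower.

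The last list held regulators of ribosome biogenesis promoters. DOT6 and TOD6 encode repressors that bind an element first described in the promoters of polymerase I and III subunit genes, STB3 a repressor that binds a second ribosome biogenesis element, SFP1 an activator and SCH9 a growth-signalling kinase. At 18 h 4 of the 5 were lower in hydrolysate, against 30.8% of all genes: STB3 (-1.66, SE 0.172, adjusted p = 0.00015), SCH9 (-1.17), TOD6 (-1.09) and DOT6 (-0.98); SFP1 was at -0.09 (adjusted p = 0.665). These 4 calls held without each array in turn. STB3 read 9.52 and 9.92 at the start, 10.30 and 10.03 at 9 h of sugar feed, 10.01 and 10.10 at 9 h of hydrolysate, 11.31 and 11.44 at 18 h of sugar feed and 9.81 and 9.62 at 18 h of hydrolysate. Both sugar arrays at 18 h were the highest of the 10. All 5 regulators were higher at 18 h of sugar feed than at the start, from 0.61 for SFP1 to 1.86 for SCH9, against 36.8% of all genes. Any relation between these transcripts and those of the subunits was not tested.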

How the data were processed

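Total RNA of 10 samples (5 groups of 2 biological replicates, per the labels) was read on Affymetrix 3′ arrays after Trizol extraction and a single amplification with biotin marking. The labels do not say whether samples of different times came from the same cultures. The deposited log2 values are RMA intensities, and the submitters' processing notes name RMA, affy 1.74.0, limma 3.52.4 and R 4.2.1 without their order or role. The authors' deposited table also gives log2 differences, adjusted p-values and a call score of 1, -1 or 0 for the feed comparisons; its header names 17 h where the labels name 18 h, and its log2 differences for the 31 genes equal those here within 7.3e-14. Its 10 per-array columns were not used, and 3 emptied lines were not analysed here.

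Of 5811 S. cerevisiae probe sets, 108 without a gene name were left out. The rest gave 5654 genes, with the probe set of highest mean for the 47 genes that had several. Genes were fitted with limma 3.58.1 in R 4.3.3 (lmFit, eBayes) in 1 model of the 10 arrays (residual degrees of freedom 5, prior 3.49) with 9 comparisons. P-values were adjusted over all genes. The procedure was tested on simulated data. The replicate numbers were checked for pairing. Alternatives were a trended and robust prior, separate fits of each comparison's arrays, a replicate block, removal of dim genes, the mean of probe sets, all probe sets, 3 scalings (quantile, median, spike-ins), removal of the trend on gene length, and each array left out. The members, lists, rules and tests were chosen with earlier results of these data known. All 31 genes are named; values on every array are given for the 6 catalytic subunit genes and, in each class, for the 2 others with the largest and the 1 with the smallest absolute feed difference at 18 h. Factor genes were named for the 3 largest called values per list, plus RRN3, MAF1, BRF1, DOT6, TOD6, STB3 and SFP1. A planned search for promoter motifs was not run, since no sequences were used here.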

Additional observations from a re-analysis of the deposited data

Results flagged for a closer look

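For 15 of the genes read here, the difference between hydrolysate and sugar feed changed from 9 h to 18 h, by limma's test of that change (adjusted p under 0.05). Among subunit genes the change was 2.43 (log2) for RPC25, 2.24 for RPC11, 1.49 for RPC17, 1.68 for RPA34, 1.12 for RPA49, 1.23 for RPB9, 1.36 for RPO26 and 1.00 for RPB10. Among the factor genes it was 0.92 for RRN9, 1.16 for UAF30, 0.59 for SUA7, 1.51 for SPT4, -0.91 for TFC3, 1.41 for PZF1 and -1.55 for STB3. The subunit genes were 8 of 31, all upward. Upward changes were in 2 of 8 polymerase I initiation factor genes and 2 of 10 polymerase II general factor genes. Of 10 polymerase III factor genes 1 changed in each direction, of 8 assembly and import factor genes none, and of 5 regulators 1 downward. In the same comparison 14.3% of all genes changed upward and 13.1% downward, and no list was tested against these shares. Of the factor genes, SPT4, TFC3 and STB3 were still called whichever array was left out; PZF1 lost it without sugar replicate 2 at 9 h, and RRN9, UAF30 and SUA7 without 6, 9 and 8 of the 10 arrays left out 1 at a time.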

How the results depend on the processing

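Of the 22 calls between feeds at 18 h, 16 held without each array in turn; RPA43, RPB2, RPB7, RPO31, RPC19 and RPB5 lost theirs without at least 1 array. The leave-one-out counts of called subunit genes were 18 to 23 at 18 h, 0 to 7 at 9 h and 4 to 12 for the change of the feed difference. Against the start they were 21 to 27 (hydrolysate, 9 h), 16 to 22 (hydrolysate, 18 h), 20 to 26 (sugar, 9 h) and 18 to 22 (sugar, 18 h), and between times 7 to 17 in hydrolysate and 18 to 23 in sugar feed. At 9 h between feeds a trended and robust prior called 1 gene, quantile normalization again 3 and removal of the length trend 2. From 9 h to 18 h of hydrolysate, a fit of only the 4 arrays compared called 8. Class medians at 18 h with spike-in scaling were 0.64 (I), -0.65 (II), 0.20 (III), 0.17 (I and III) and 0.75 (all 3). With the length trend removed they were -0.71 (II), 0.75 (III), 0.09 (I and III) and 0.34 (all 3), and for polymerase I 0.68 after quantile normalization again. Without single arrays the medians at 18 h lay between 0.42 and 1.00 (I), -0.47 and -0.35 (II), 0.31 and 0.54 (III), 0.27 and 0.52 (I and III) and 0.90 and 1.00 (all 3). At 9 h they lay between -0.18 and 0.26 (I), -0.05 and 0.11 (II), -0.06 and 0.35 (III), 0.17 and 0.58 (I and III) and -0.22 and 0.30 (all 3). RPB2 at 18 h turned from -0.42 to 0.03 (adjusted p = 0.826) with the length trend removed. The cause of these shifts was not tested beyond what each alternative changes. With spike-in scaling the share of called subunit genes that were higher went from 60% to 100% (sugar, 18 h against start), from 85.7% to 100% (hydrolysate, 18 h against start), from 15.4% to 0% (hydrolysate, 18 h against 9 h) and from 100% to 66.7% (change of the feed difference). With the length trend removed it was 73.7% for sugar feed at 18 h against the start and 80% for the change. A fit of only the arrays compared gave 72.7% for the change.

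Same-numbered replicates did not deviate together: over 10 pairs of groups the correlation of deviations ran from -0.204 to 0.13, over 0.1 in 1 pair, so the numbers were not taken to pair the samples. A fit with the replicate number as a block called 22 subunit genes between feeds at 18 h, 0 at 9 h, 7 for the change of the feed difference, 24, 21, 23 and 20 against the start (hydrolysate 9 h and 18 h, sugar 9 h and 18 h), 10 between times in hydrolysate and 20 in sugar feed. With 2 arrays a group, the number of arrays limits the precision.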
